A study of Mus musculus with 3 samples.

Results

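The proteasome subunit genes were taken by symbol, as every row of the filtered UMI count table that begins with Psm, a letter from a to g and a digit. They were 49 of the 14933 genes of the table. By known role 47 of them fell into 8 lists, and 2 (Psme2b, a copy of Psme2, and Psmc3ip, a recombination cofactor) were taken by their letters only. Psmb11, the thymus-specific core subunit, was no row of that table and had 1 UMI in the filtered cells of all 3 libraries together.

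The cells came from the medial prefrontal cortex (mPFC) of C57Bl6 mice at postnatal day 5 and were dissociated with papain and sorted for tdTomato. All 3 groups carried Rbp4cre, a Cre driver active in layer 5 of the cortex, and the tdTomato reporter that Cre switches on. The wild-type group (WT) was Rbp4cre::tdTomato, the heterozygous group (Het) Tbr1f/+::Rbp4cre::tdTomato and the homozygous group (Hom) Tbr1f/f::Rbp4cre::tdTomato, and each genotype gave 1 10X Chromium 3′ library. Where 3 values follow each other below with no library named, they are for WT, Het and Hom. The design asks which transcripts depend on Tbr1, a transcription factor of deep-layer projection neurons. Since every genotype had a single library, genotypes could not be tested against each other, and the number of mice behind each library is not given in the sources used here. All intervals below cover counting error at 95% and nothing else, so they leave out the spread between animals and between libraries.

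The proteasome degrades proteins that carry ubiquitin chains. Its 20S core is a barrel of alpha rings around beta rings, and the beta subunits encoded by Psmb5, Psmb6 and Psmb7 cut peptide bonds. The 19S cap has a base of ATPases that unfold the substrate and a lid that removes ubiquitin. In immune cells and after interferon, Psmb8, Psmb9 and Psmb10 take the places of Psmb5, Psmb6 and Psmb7 in the immunoproteasome, and PA28 (Psme1 and Psme2) caps the core in place of 19S. In neurons the proteasome also turns over synaptic proteins.

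The filtered table held 17396 cells, of which 11943 were in the authors' neuronal table. Of these, 11070 had been kept for their comparison of genotypes and are called typical neuronal cells here. The other 873 had been set apart as atypical neuronal cells, and 5453 filtered cells lay outside the neuronal table. Typical cells numbered 1778 in the WT library, 5357 in the Het and 3935 in the Hom, with 3670646, 10418228 and 6074494 UMIs in all. Median depth was 1901, 1743 and 1375 UMIs per cell in that order, so the WT had the fewest typical cells and the Hom the lowest depth per cell. Levels are given in CPM, the UMIs of a gene per 1000000 UMIs of all genes of the class and library. A 3′ UMI count does not grow with transcript length, so CPM was compared between genes as it stands, although capture may differ between transcripts.

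The typical cells were checked against 6 excitatory neuron markers, which summed to 2071 CPM in the WT, 2480 in the Het and 3155 in the Hom library. Nrgn gave most of that sum, and none of the 6 markers was at 0. Empty droplets (barcodes with at least 100 and under 500 UMIs) held 1118, 1596 and 1835 CPM of the same list. Inhibitory neuron markers summed to 64.4 to 89.4 CPM. Microglial markers summed to 30.5 to 57.2 CPM, below the 135 to 233 CPM of empty droplets. Blood markers stood at 344 CPM in the WT, 44.5 in the Het and 85.6 in the Hom library. The astrocyte list, led by Fabp7 and Apoe, reached 9697 to 10682 CPM in typical cells and 10432 to 11318 CPM in empty droplets, so it did not set cells apart. Mitochondrial transcripts took 10.7%, 15.7% and 12.8% of the UMIs of typical cells and ribosomal protein transcripts 21.9%, 16.1% and 17.2%. Tbr1 itself stood at 27.5, 30.7 and 22.4 CPM in that order. The floxed exons lie outside the 3′ end that was counted, so these values check no genotype. Of 17255 barcodes, 139 occurred in 2 libraries and 1 in 3.

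The upstream sequences of 3 genes with catalytic subunits are shown as a description, and the comparison of constitutive with immunoproteasome levels below does not use them. Psmb5 and Psmb6 encode constitutive catalytic subunits, and Psmb10 was the immunoproteasome gene with the highest level in typical neurons. Psmb7, whose place Psmb10 takes, had no entry and is not shown. Each sequence runs 5′ to 3′ on the strand of its gene, within 250 bases upstream of the RefSeq start on GRCm38.p6, and leaves out bases that lie in an annotated exon. Psmb5 lies on the minus strand at chr14:54618023-54618245, Psmb6 on the plus strand at chr11:70525107-70525356 and Psmb10 on the minus strand at chr8:105938445-105938642. Capitals mark matches to the core of the antioxidant response element, TGACNNNGC, and to the GC box, GGGCGG, on either strand.
Psmb5: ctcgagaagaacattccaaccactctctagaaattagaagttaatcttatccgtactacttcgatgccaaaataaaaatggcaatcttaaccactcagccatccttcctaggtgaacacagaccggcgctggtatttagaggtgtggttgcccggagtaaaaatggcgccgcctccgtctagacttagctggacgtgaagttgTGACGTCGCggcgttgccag
Psmb6: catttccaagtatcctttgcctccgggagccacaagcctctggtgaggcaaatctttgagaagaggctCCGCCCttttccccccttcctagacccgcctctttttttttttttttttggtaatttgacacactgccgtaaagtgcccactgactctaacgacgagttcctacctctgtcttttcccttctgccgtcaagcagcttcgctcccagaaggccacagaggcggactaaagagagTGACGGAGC
Psmb10: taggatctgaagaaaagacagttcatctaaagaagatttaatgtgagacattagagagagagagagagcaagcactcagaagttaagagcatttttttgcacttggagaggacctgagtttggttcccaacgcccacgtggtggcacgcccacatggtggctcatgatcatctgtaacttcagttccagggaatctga
The antioxidant core is the stretch that Nrf1 and Nrf2, known activators of proteasome genes, are described to bind. It was matched within 250 bases upstream in 4 of the 25 constitutive 20S and 19S genes with a RefSeq entry (Psmb5, Psmb6, Psmc6 and Psmd12), or 16.0%, beside 11.5% of 27025 genes. A GC box was matched in 14 of these 25, or 56.0%, beside 35.4% of all genes, with 5 of 6 lid genes among them. The CCAAT box, CCAAT, was matched in 10 of the 25, or 40.0%, beside 37.5% of all genes, with 5 of 7 alpha, 1 of 4 beta and 1 of 6 lid genes among them. Motifs were searched on both strands, and a match is a description of letters, not a binding site.

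In typical neuronal cells the proteasome genes together gave 0.617% of all UMIs in the WT, 0.645% in the Het and 0.653% in the Hom library. Core genes were the more abundant part. The median level of the 14 constitutive 20S genes was 265, 277 and 279 CPM, against 93.2, 86.3 and 92.4 CPM for the 17 base and lid genes. The 7 alpha genes summed to 1708, 1689 and 1720 CPM and the 7 beta genes to 2193, 2385 and 2362 CPM. The 9 base genes summed to 907, 1009 and 1066 CPM and the 8 lid genes to 639, 706 and 687 CPM. Thus the order of the roles was the same in all 3 libraries, from beta to alpha, base and lid.

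Psma7, an alpha ring subunit, was the most abundant member, at 634 CPM (608 to 660) in the WT, 572 (557 to 586) in the Het and 593 (574 to 613) in the Hom library. By its mean it ranked 265 among all 14933 genes. By mean level the most abundant beta gene was Psmb1, a non-catalytic subunit, at 414, 478 and 432 CPM in the same order. Its interval in the Het library, 465 to 491 CPM, lay above those of the other 2 libraries. Psmb6 had a mean of 431 CPM over the 3 libraries, Psmb5 of 308 CPM and Psmb7 of 216 CPM, so that the catalytic subunits were not level with each other. Among the base genes Psmc3, an ATPase, led with 175 CPM (162 to 190), 196 (188 to 205) and 223 (212 to 235), and the WT and Hom intervals did not overlap. Psmd8 led the lid with 148, 169 and 152 CPM.

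Regulators and chaperones covered a wide range. Psmd9, an assembly chaperone of the base, stood at 51.2, 48.5 and 52.8 CPM, and the 3 base chaperones together at 105 to 107 CPM. Psme1 led the activators at 120, 91.0 and 98.3 CPM. Psme4, the activator PA200, was low at 5.45, 5.66 and 5.60 CPM, with intervals that overlap. Psmg4, a chaperone of the core, stood at 153, 113 and 123 CPM, while the other 3 core chaperones had means of 25.7 to 29.8 CPM. The plot of levels by gene shows how little most members differed between libraries beside the differences between genes.

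**Figure D1:**
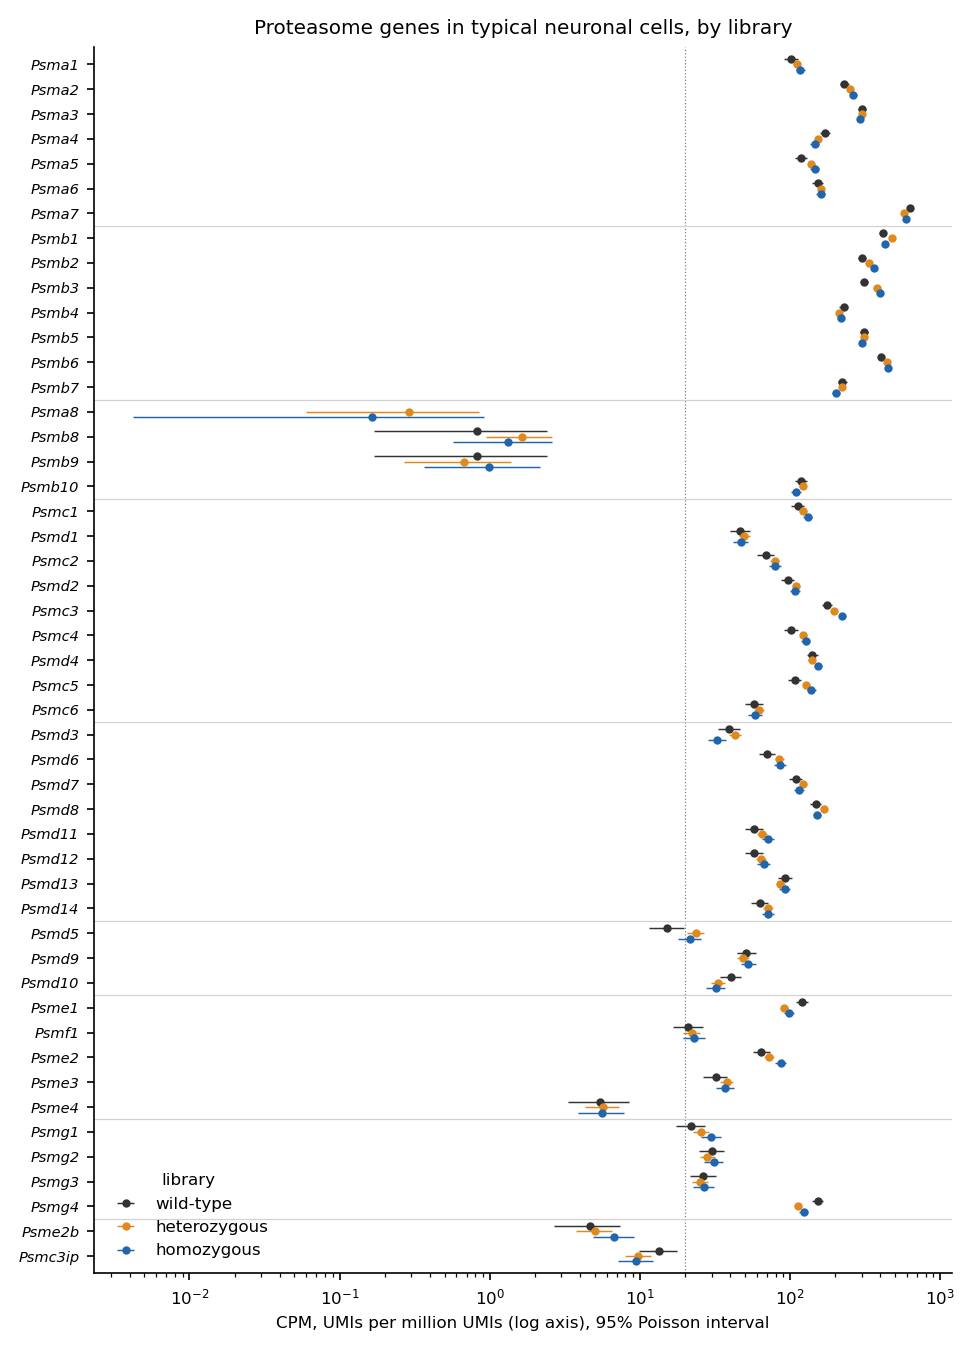
Levels of the 49 members in typical neuronal cells of the 3 libraries, as CPM on a log axis with 95% Poisson intervals, in bands by role from 20S alpha at the top to the 2 genes matched by letters only. The dotted line marks 20 CPM, which 43 members passed by their mean, and Psma8 has no point for the WT library, where it had 0 UMIs. Most genes differ less between libraries than from their neighbours, and Psma8, Psmb8 and Psmb9 lie far to the left of the other core genes.

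The 43 members with a mean of at least 20 CPM enter the counts below. The 6 that did not were Psma8, Psmb8, Psmb9, Psme4, Psme2b and Psmc3ip. Psme2b had 4.63, 4.99 and 6.75 CPM and Psmc3ip 13.3, 9.69 and 9.38 CPM. Because Psme2b is close in sequence to Psme2, their reads may not be fully told apart and the values of Psme2 are uncertain to that extent.

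The immunoproteasome genes split in typical neurons. Psmb8 had 3 UMIs in the WT, 17 in the Het and 8 in the Hom library, or 0.82, 1.63 and 1.32 CPM. Psmb9 had 3, 7 and 6 UMIs. Both lay below the empty droplets, which held 2.48 to 3.52 CPM of Psmb8 and 1.29 to 1.90 CPM of Psmb9. The intervals of cells and droplets were apart only for Psmb8 in the WT library and overlapped otherwise. Mural cell markers, the lowest list, stood in typical cells at 23.0%, 12.4% and 15.5% of their empty-droplet level. The droplet level is thus no direct measure of free RNA in cells, and whether neurons held either transcript was not tested. Psma8, the testis-specific alpha subunit, had 0, 3 and 1 UMIs, and the 0 allows up to 0.817 CPM (3 counts). By contrast Psmb10 stood at 118 CPM (107 to 130), 122 (115 to 128) and 109 (101 to 118), above the empty droplets at 98.5, 104 and 95.1 CPM in the same order. The intervals of cells and droplets were apart in each library, and those of the 3 genotypes overlapped. The log2 ratio of Hom over Het was −0.16 (−0.29 to −0.02), with −0.13 (−0.26 to −0.01) in empty droplets.

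Set against the constitutive subunit whose place it takes, each gene was expressed as its share of the UMIs of the pair, a measure that needs no scaling and was chosen after the data had been seen. Psmb10 gave 34.7% (32.1 to 37.4) of the Psmb7 and Psmb10 UMIs of typical cells in the WT, 35.4% (33.8 to 37.0) in the Het and 35.0% (32.9 to 37.2) in the Hom library. The intervals of these 3 shares overlapped. Empty droplets gave 31.6% (30.3 to 33.0), 30.1% (28.4 to 31.8) and 31.5% (30.1 to 32.9). The intervals of cells and droplets were apart in the Het library and overlapped in the WT and the Hom. Psmb8 gave 0.26%, 0.52% and 0.43% of its pair with Psmb5, and Psmb9 0.20%, 0.15% and 0.22% of its pair with Psmb6.

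In the Hom library the members summed to a log2 ratio over WT of 0.08 (0.06 to 0.11), and in the Het to 0.07 (0.04 to 0.09). The summed members of empty droplets of the same libraries gave 0.09 (0.08 to 0.11) and 0.12 (0.10 to 0.13). The Hom sum was 0.028 without mitochondrial and ribosomal protein transcripts in the denominator, 0.044 in cells with 1500 to 2000 UMIs and −0.34 as raw UMIs per cell, which carry the lower depth of that library, and the Het sum was −0.020 as raw UMIs per cell. The median ratio of the 43 members with at least 20 CPM was 0.12 in the Hom and 0.13 in the Het library, beside 0.08 and 0.06 over all 4261 genes at that level. The counts of members use a threshold of 0.32 on the log2 scale, in either direction. Past it, 7 of the 43 members (16.3%) were higher in the Hom than in the WT library, beside 17.2% of all genes, and 1 was lower, beside 8.5%. In the Het library 1 member was higher, beside 17.1%, and 2 were lower, beside 9.5%. That 1 higher member, Psmd5, was also among the 7 of the Hom library, and it passed 20 CPM only through its Het and Hom levels. The 2 comparisons share the WT library, so they are not independent. With mitochondrial and ribosomal protein transcripts taken out of the denominator, the Hom count was 3 higher in place of 7, beside 11.9% of all genes, and 3 lower in place of 1, beside 11.5%.

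The base of the 19S cap had the highest ratio of the roles. Its 9 genes summed to a log2 ratio of 0.23 (0.17 to 0.29) in the Hom and 0.15 (0.10 to 0.21) in the Het library over WT. In the Hom library all 9 lay above 0, as did 61% of all genes. Psmc3, Psmc4 and Psmc5, all ATPases of the ring, passed 0.32 there, beside 17.2% of all genes. None of these 3 passed 0.32 without mitochondrial and ribosomal protein transcripts in the denominator, beside 11.9% of all genes. In the Het library 8 of 9 lay above 0, beside 58.8% of all genes, and Psmd4 was at −0.019. There 0 of 9 passed 0.32, beside 17.1% of all genes. Psmc3 gave 0.35 (0.21 to 0.49), Psmc4 0.33 (0.15 to 0.51) and Psmc5, which was chosen after its values were seen, 0.36 (0.19 to 0.54). Empty droplets showed the base at 0.26 (0.22 to 0.29) in the Hom library, where the interval of the cells overlapped, and at 0.27 (0.23 to 0.30) in the Het library, above that of the cells. The part of free RNA and of the library in these ratios was not tested. The alpha ring, by contrast, was at 0.01 (−0.03 to 0.06) and −0.02 (−0.06 to 0.03).

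Of the other members that were higher, Psmb3, a beta subunit, had 312 CPM (294 to 331) in the WT, 380 (368 to 392) in the Het and 399 (383 to 415) in the Hom library. The WT interval lay apart from the other 2, and the log2 ratios were 0.28 in the Het and 0.35 in the Hom library. Empty droplets gave 0.26 and 0.36, close to the cells. Psmb3 was no longer past 0.32 in the Hom library without mitochondrial and ribosomal protein transcripts in the denominator, at 0.30, while Psmd5, Psme2 and Psmg1 were. Psmd5, a base chaperone, had 15.3, 23.5 and 21.4 CPM in that order and log2 ratios of 0.62 (0.20 to 1.07) in the Het and 0.49 (0.03 to 0.97) in the Hom library. It rested on 56 UMIs in the WT, and empty droplets gave 0.10 and 0.20. Its mean was 20.06 CPM, so it passed the filter of 20 CPM only through the libraries in which it was higher. Its place in the counts is therefore no support for a difference. Psme2, of PA28, had 64.3, 72.5 and 86.8 CPM, and its Hom ratio was 0.43 (0.21 to 0.66) against 0.16 in empty droplets. Psmg1, a core chaperone, had 21.8, 25.5 and 29.8 CPM, with a Hom ratio of 0.45 (0.06 to 0.85) against 0.33 in empty droplets.

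The members that were lower past the threshold were Psme1 and Psmg4 in the Het and Psmd10 in the Hom library. Psme1, the partner of Psme2 in PA28, was at 120 CPM (109 to 132) in the WT and below it at 91.0 (85.3 to 97.0) and 98.3 (90.6 to 106) in the Het and Hom. Its log2 ratios were −0.40 (−0.57 to −0.23) and −0.29 (−0.47 to −0.11), and those of empty droplets were −0.25 and −0.42. The PA28 genes therefore lay on opposite sides of 0 in the Hom library. Psmg4 had ratios of −0.43 (−0.58 to −0.28) in the Het and −0.31 (−0.47 to −0.15) in the Hom library, with −0.41 and −0.17 in empty droplets. Psmd10, the chaperone also known as gankyrin, had 40.3, 33.1 and 32.1 CPM and a Hom ratio of −0.33 (−0.64 to −0.01). The interval of its Het ratio, −0.28, took in 0. Empty droplets gave 0.02 in the Het and −0.07 in the Hom library.

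**Figure D2:**
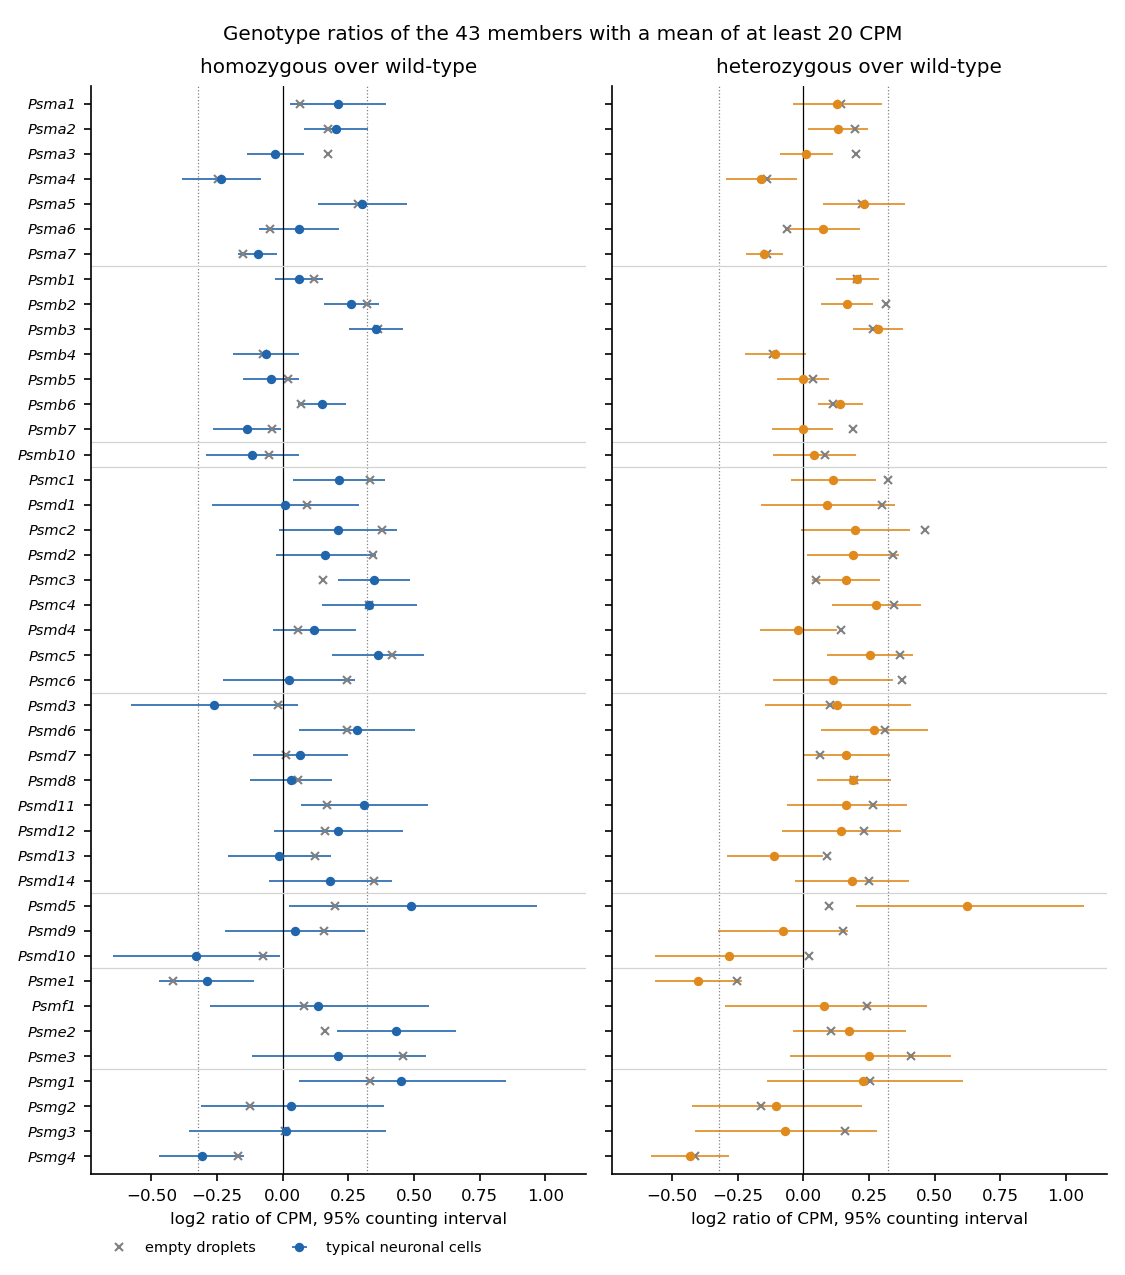
Log2 ratios of CPM over WT for the 43 members with a mean of at least 20 CPM, in the Het and the Hom library, as points with 95% counting intervals for typical neuronal cells and crosses for empty droplets. Dotted lines mark 0.32 in either direction. In the Hom library 7 members lie past the upper line and Psmd10 past the lower, and for many genes the cross lies near the point.

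Cells outside the neuronal table were compared with typical neurons within each library. The classes were cut by the authors from clusters of the same cells, so these ratios are a description with no test. The outside cells held 1201 to 1403 CPM of microglial markers, 4902 to 9517 CPM of blood markers and 10908 to 12346 CPM of the astrocyte list. In each library Slc1a3, Aqp4, Gja1 and Apoe of the astrocyte list were higher than in typical neurons, and Fabp7 and Aldoc were lower. Excitatory markers still summed to 632 CPM in the WT, 1910 in the Het and 1281 in the Hom library. The Het outside cells were thus the closest to neurons by the excitatory list, and its part in the smaller Het ratios below was not tested.

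The cap genes lay further above typical neurons than the beta genes. The 7 beta genes summed to log2 ratios, outside over typical, of 0.03 in the WT, −0.08 in the Het and 0.01 in the Hom library, and 0 of 7 passed 0.32 in any library. The 7 alpha genes were mixed, with sums of 0.12, −0.02 and 0.06 and with 4, 0 and 3 of them past 0.32 higher. Of all genes, 42.9% were past 0.32 higher outside in the WT, 27.3% in the Het and 36% in the Hom library. The base summed to 0.41 (0.35 to 0.47), 0.09 (0.04 to 0.14) and 0.29 (0.23 to 0.35), and the lid to 0.59 (0.52 to 0.66), 0.17 (0.11 to 0.22) and 0.37 (0.29 to 0.44). All genes together had medians of 0.19, 0.06 and 0.11. Of the 8 lid genes 7, 2 and 6 were past 0.32 higher outside, and of the 9 base genes 7, 0 and 4. Over all 43 members the counts were 24, 5 and 16, so that the share of members lay above that of all genes in the WT, near it in the Hom and below it in the Het library. The sum of all members was 0.20, 0.02 and 0.13.

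These ratios depend on the scaling. With TMM factors every ratio shifted by −0.72 in the WT, −0.45 in the Het and −0.62 in the Hom library, the median of all genes became −0.53, −0.38 and −0.52 and the members' sums turned negative. The sums also turned to −0.019, −0.096 and −0.042 without mitochondrial and ribosomal protein transcripts in the denominator. A measure that no scaling can move is the share of the 19S among the UMIs of 19S and constitutive 20S, which was chosen after the data had been seen. In typical neurons it was 28.4% (27.8 to 29.0), 29.6% (29.3 to 29.98) and 30.04% (29.6 to 30.5). Outside the neuronal table it was 34.6% (34.2 to 35.0), 32.2% (31.6 to 32.8) and 34.4% (33.6 to 35.1), higher than in typical neurons of the same library in 3 of 3 libraries. Empty droplets lay between, at 29.2%, 31.1% and 31.1%. Atypical neurons were at 28.3%, 26.6% and 26.7%.

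**Figure D3:**
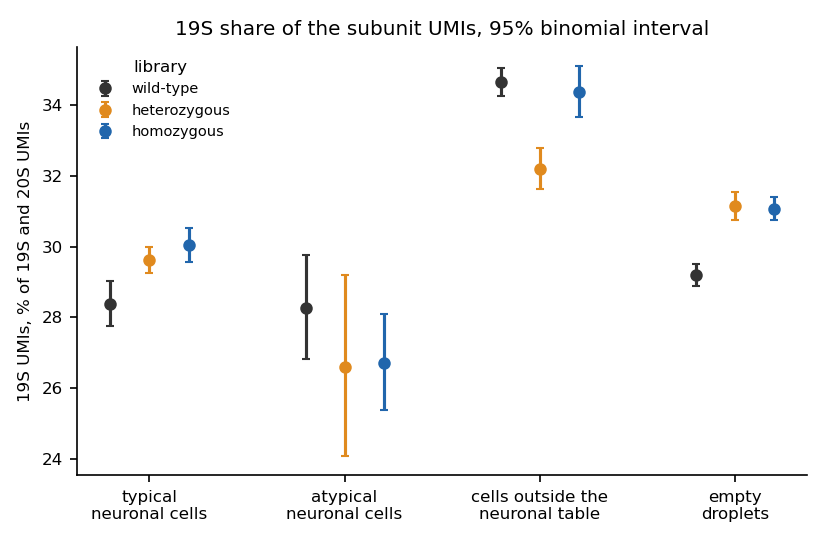
Share of 19S base and lid UMIs among those of the 19S and the constitutive 20S, in percent with 95% binomial intervals, for 4 classes of barcode in each of the 3 libraries. The outside cells lie highest, at 32.2% to 34.6%, the typical neurons at 28.4% to 30.04% and the atypical neurons at 26.6% to 28.3%.

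Of the members with a mean of at least 20 CPM, only Psmd3 and Psmd11, both scaffold subunits of the lid, were past 0.32 higher outside in all 3 libraries. That is 2 of 43 members, beside 23.8% of all genes, and 0 members were lower in all 3, beside 9.25%. Psmd3 and Psmd11 were named after their values were seen. The filter of 20 CPM uses typical neurons, so it can leave out members that are high outside. Psmb8, Psmb9, Psme4 and Psmc3ip, all under it, were also past 0.32 higher in each library, with Psmc3ip at 0.86, 0.57 and 1.14. Psmd11 had 57.8, 64.7 and 71.6 CPM in typical neurons and 113, 91.9 and 106 CPM outside, and the classes did not overlap in any library. Psmd3 had 39.2, 42.9 and 32.8 CPM in typical neurons and 70.7, 54.9 and 59.0 CPM outside, with intervals that were apart in every library. With TMM factors 0 members were higher, beside 6.83% of all genes, and 17 were lower in all 3 libraries, beside 48.8%.

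The largest ratios belonged to members under 20 CPM. Psmb8 stood outside at 17.5 CPM (14.8 to 20.6) in the WT, 13.4 (10.2 to 17.4) in the Het and 15.0 (10.7 to 20.5) in the Hom library, log2 ratios of 4.42 (2.85 to 6.72), 3.04 (2.24 to 3.91) and 3.51 (2.40 to 4.82). Psmb9 had 6.73, 5.33 and 6.01 CPM outside, with ratios of 3.04, 2.99 and 2.61. Psme4, at 20.9, 18.5 and 16.9 CPM, had ratios of 1.94 (1.27 to 2.68), 1.71 (1.21 to 2.22) and 1.60 (0.92 to 2.28). Psma8 had 14, 7 and 10 UMIs outside, or 1.63, 1.62 and 3.76 CPM, against 0, 3 and 1 UMIs in typical neurons. Its ratio was 2.49 (0.36 to 5.08) in the Het and 4.51 (1.70 to 9.95) in the Hom library, the latter the highest Hom ratio of the 4 genes and resting on 1 typical UMI. Of the Psmb8 UMIs of all filtered cells, 88.6% lay outside the neuronal table.

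Psmb10 lay lower outside than in typical neurons. Outside the table it had 68.5 CPM (63.1 to 74.2) in the WT, 105 (95.5 to 115) in the Het and 80.8 (70.4 to 92.3) in the Hom library, against 109 to 122 CPM in typical neurons. The log2 ratios were −0.79 (−0.97 to −0.61), −0.21 (−0.37 to −0.06) and −0.43 (−0.66 to −0.21). Psmg4 also lay lower outside, at −0.40, −0.12 and −0.26, and so did Psma7 at −0.17, −0.15 and −0.18. These 3 were the members with the lowest mean ratio.

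Atypical neurons differed from typical ones past the threshold in all 3 libraries in Psmb10, which was lower, and Psmg4, which was higher. Psmb10 had 74.0 CPM (54.9 to 97.5) in the WT, 55.5 (28.7 to 96.9) in the Het and 37.6 (25.0 to 54.3) in the Hom library, log2 ratios of −0.68 (−1.13 to −0.25), −1.13 (−2.09 to −0.32) and −1.54 (−2.14 to −0.99). The Het value rests on 12 UMIs. It was the 1 member of 43 that was past 0.32 lower in all 3 libraries, beside 9.27% of all genes. As a share of the pair with Psmb7 it was 27.3% (21.0 to 34.4), 20% (10.8 to 32.3) and 15.1% (10.3 to 21.1), against 34.7% to 35.4% in typical cells. The intervals of the 2 classes overlapped in the WT library and were apart in the Het and Hom. Excitatory markers in atypical cells summed to 755 CPM in the WT, 2631 in the Het and 1475 in the Hom library, inhibitory markers to 225, 134 and 145 CPM against 89.4, 69.9 and 64.4 in typical cells, and blood markers to 345, 60.1 and 997 CPM against 344, 44.5 and 85.6. The part of these lists in the Psmb10 and Psmg4 ratios was not tested.

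Psmg4 was the 1 member that was past 0.32 higher in all 3 libraries, beside 2.79% of all genes. Atypical cells held 195 CPM (163 to 232) in the WT, 208 (152 to 278) in the Het and 192 (162 to 226) in the Hom library, with ratios of 0.36 (0.07 to 0.63), 0.88 (0.42 to 1.31) and 0.64 (0.37 to 0.90). The 3 atypical levels overlapped, while typical cells held 113 to 153 CPM. The call ended with TMM factors, where the WT ratio was 0.19 and 0 members were higher in all 3 libraries, beside 1.97% of all genes, and in cells with 1500 to 2000 UMIs, where it was 0.30, beside 2.63%. Over all members the sums were 0.01, −0.06 and −0.05. Without mitochondrial and ribosomal protein transcripts in the denominator every ratio shifted by 0.027 in the WT, 0.11 in the Het and 0.094 in the Hom library, and the Het and Hom sums turned to 0.044 and 0.046. With TMM factors the WT sum was −0.17. On the scale of CPM the 19S base and lid were lower in the Het and Hom libraries, at −0.23 (−0.39 to −0.07) and −0.22 (−0.31 to −0.13), and at −0.01 (−0.11 to 0.09) in the WT. All genes together had medians of −0.17 in the Het, −0.12 in the Hom and −0.02 in the WT library, so a fall in the Het and Hom was not particular to the 19S.

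**Figure D4:**
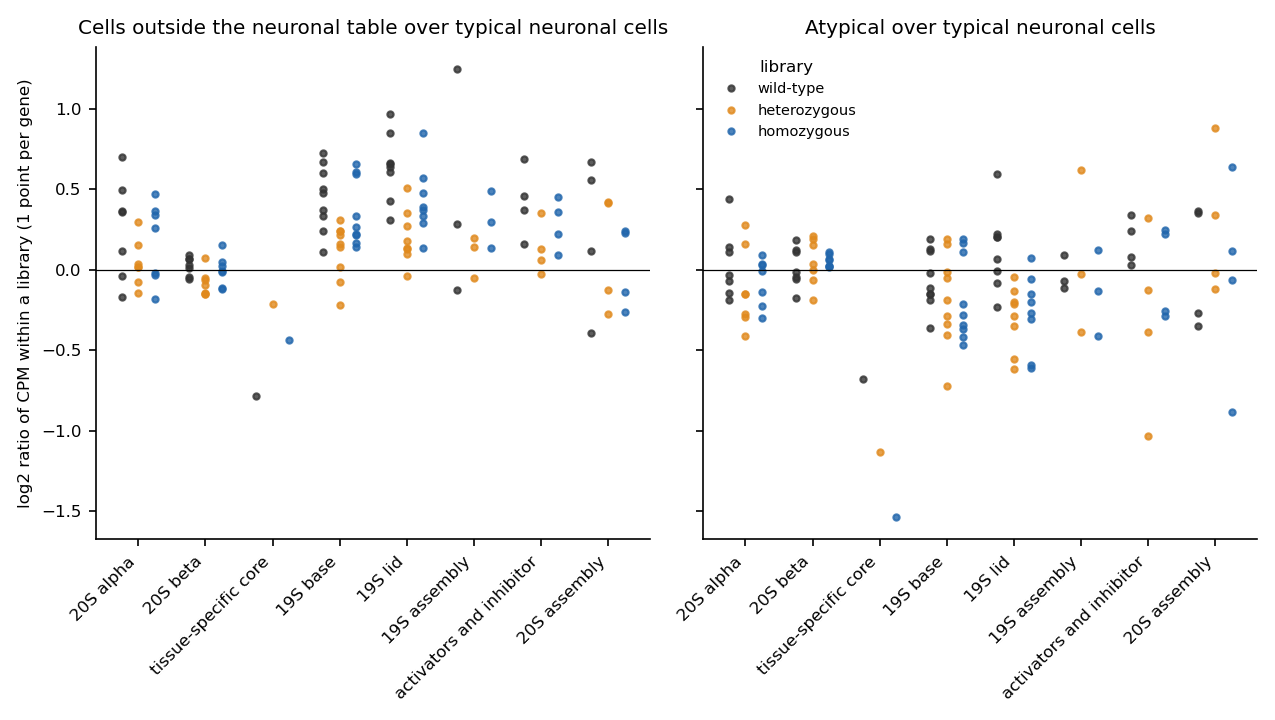
Log2 ratios of CPM within each library, 1 point per gene with a mean of at least 20 CPM, for cells outside the neuronal table (left) and atypical neurons (right) over typical neurons, by role. On the left the 20S beta points lie around 0 and the 19S lid points mostly above it, which holds for CPM and turns below 0 for the sum of all members with TMM factors. Psmb10, the only tissue-specific core gene plotted, lies below 0 in each library in both panels.

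To see which outside cells carried these transcripts, cells with UMIs on at least 3 markers of a list, and on more of that list than of any other, were taken as marker groups. These groups are cut by counts and are not tested cell types. The microglial group held 477 cells, the endothelial 395, the inhibitory 262, the cycling 198, the oligodendrocyte lineage 156, the mural 114, the excitatory 109, the meningeal fibroblast 95 and the blood group 34, while 1332 cells fell in no group. The astrocyte group was the largest, with 2281 cells. The same rule put 61.4% to 68.1% of typical neurons in it, so that group was read as no type. Only 2.8% to 3.6% of typical neurons met the rule for the excitatory group. Of the 109 outside cells of the excitatory group, 42 had exactly 3 markers. The levels below are over the 3 libraries summed, which each group drew on unequally.

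Psmb8 was concentrated in the microglial group, at 123 CPM (105 to 143) against 1.39 (0.92 to 2.01) in typical neurons. It was 145, 90.6 and 117 CPM in the microglial group of the WT, Het and Hom library, high in each. Of 281 Psmb8 UMIs in all filtered cells, 166 (59.1%) were in that group. The endothelial group had 9.16 CPM (4.88 to 15.7) and the fibroblast group 9.04 CPM on 3 UMIs, and the cycling, mural and oligodendrocyte groups had 0 UMIs, which allows up to 3.88, 10.3 and 5.72 CPM (3 counts). The excitatory group also had 0 UMIs of Psmb8 and of Psmb9, which allows up to 7.83 CPM of each. Psmb9 was also highest in the microglial group, at 42.3 CPM (32.0 to 54.7) against 7.75 (3.87 to 13.9) in the endothelial group, and 57 of its 114 UMIs were there. In the microglial group Psmb8 made up 34.0% (29.8 to 38.4) of its pair with Psmb5 and Psmb9 9.19% (7.04 to 11.7) of its pair with Psmb6.

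Psmb10 was spread in another way. Typical neurons held 117 CPM (113 to 122), the microglial group 110 (92.7 to 129), the inhibitory group 105 (83.2 to 130) and the excitatory group of outside cells 91.4 (63.7 to 127), and these intervals overlapped. The excitatory group varied by library, with 50.7 CPM (21.9 to 99.8) on 8 UMIs in the WT, 123 (76.8 to 186) in the Het and 110 (35.6 to 256) on 5 UMIs in the Hom library, and in the WT it lay below the typical neurons. Lower were the endothelial group at 60.6 CPM (48.5 to 74.8), the mural at 54.7 (31.3 to 88.8), the oligodendrocyte lineage at 47.6 (30.8 to 70.3), the fibroblast at 42.2 (23.1 to 70.8) and the cycling group at 25.9 (15.8 to 39.9). As a share of the pair with Psmb7 it was 37.0% (32.3 to 41.9) in the microglial group, 35.2% (34.0 to 36.3) in typical neurons, 29.8% (24.5 to 35.6) in the inhibitory group, 27.6% (20.01 to 36.2) in the excitatory group, 16.8% (11.2 to 23.8) in the oligodendrocyte lineage and 7.52% (4.65 to 11.4) in the cycling group. The microglial group was high in Psmb8 and Psmb9, and typical neurons were high in Psmb10 without the others. For Psmb10 the microglial interval took in the level of typical neurons, and also those of empty droplets, at 98.5, 104 and 95.1 CPM.

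The PA28 genes were less uneven. Psme1 stood at 190 CPM (167 to 214) in the microglial group, 176 (148 to 208) in the inhibitory group and 98.5 (94.2 to 103) in typical neurons, and Psme2 at 170 (148 to 193), 99.5 (78.6 to 124) and 75.3 (71.5 to 79.2) in the same order. Psme4 was highest in the inhibitory group at 38.3 CPM (25.8 to 54.6), the fibroblast at 36.2 (18.7 to 63.2) and the mural group at 34.2 (16.4 to 62.9), which overlapped each other, while typical neurons had 5.60 (4.62 to 6.74). The microglial group had 17.0 CPM (10.8 to 25.6) of Psme4.

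**Figure D5:**
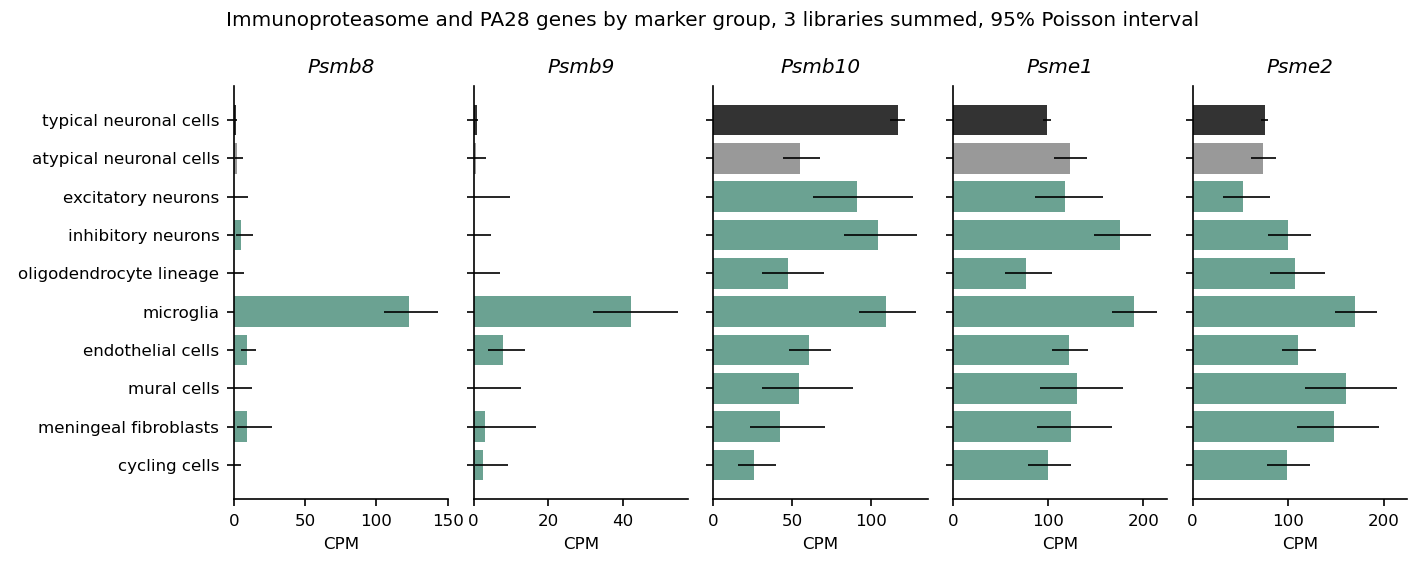
CPM of the immunoproteasome and PA28 genes in typical and atypical neurons (dark and grey bars) and in 8 marker groups of outside cells (green bars), 3 libraries summed, with 95% Poisson intervals. Psmb8 and Psmb9 have their highest bar in the microglial group, at 123 and 42.3 CPM, while Psmb10 is as high in typical neurons, at 117 CPM, as there.

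Summed over all members and the 3 libraries, the cycling group was highest at 8748 CPM (8541 to 8959), followed by the oligodendrocyte lineage at 8157 (7915 to 8405) and the inhibitory group at 8038 (7840 to 8238), and the last 2 overlapped. Of the cells of the cycling group 161 of 198 came from the WT library, and the order was not the same in each library. In the WT the cycling group was at 8801 CPM (8576 to 9031), above the inhibitory at 8102 (7836 to 8375) and the oligodendrocyte lineage at 7830 (7548 to 8121). In the Hom library the oligodendrocyte lineage was at 8893 CPM (8364 to 9447), the inhibitory group at 8378 (7969 to 8803) and the cycling group, with 16 cells, at 8258 (7344 to 9254), and these intervals overlapped. In the Het library the oligodendrocyte lineage, with 9 cells, was at 9071 CPM (8124 to 10098) and the cycling group, with 21, at 8537 (7916 to 9194), which also overlapped. The Het inhibitory group lay below both intervals, at 7475 CPM (7061 to 7906), and under the mural group at 7841 (7059 to 8687), whose interval overlapped it. Typical neurons were at 6424 CPM (6389 to 6459), the microglial group at 6934 (6794 to 7076) and the excitatory group of outside cells at 6400.1 (6149 to 6659), which overlapped the typical neurons. These sums are on the scale of CPM, and no other denominator was tried for marker groups. Mitochondrial transcripts took 4.96%, 12.5% and 7.55% of the UMIs of outside cells, against 10.7%, 15.7% and 12.8% in typical neurons. The 19S share was 31.7% (30.7 to 32.8) in the microglial, 32.5% (30.5 to 34.5) in the excitatory, 35.3% (34.0 to 36.5) in the inhibitory, 36.3% (35.1 to 37.6) in the cycling and 37.7% (35.5 to 39.9) in the mural group. Every group named here lay above the 30.04% of typical neurons in the Hom library, the highest of the 3, although the interval of the excitatory group overlapped that of the Hom typical neurons.

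Other genes of the pathway were described from a list of 28, of which 27 were in the table and 21 reached 20 CPM. In the Hom library 4 were past 0.32 higher and 2 lower than in the WT, beside 17.2% and 8.5% of all genes. In the Het library 6 were higher and 1 lower, beside 17.1% and 9.5%. Their median log2 ratios were 0.10 and 0.15. Rps27a, which encodes ubiquitin fused to a ribosomal protein, had 2807, 1882 and 1866 CPM, with ratios of −0.58 in the Het and −0.59 in the Hom library. The WT was the highest of the 3 libraries for that gene.

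Pomp, the chaperone that closes the core, held 454, 435 and 469 CPM. Adrm1, a ubiquitin receptor of the cap, had 66.2, 79.4 and 86.6 CPM, with a Hom ratio of 0.39 (0.17 to 0.61). Nfe2l1, which encodes Nrf1, had 23.2, 23.3 and 21.4 CPM, nearly level between genotypes.

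Of the 21 pathway genes, 2 were past 0.32 higher outside the neuronal table in all 3 libraries and 2 were lower, beside 23.8% and 9.25% of all genes. Uchl1, a neuronal deubiquitinase, was among the lower ones, at log2 ratios of −0.98, −0.38 and −0.61. The higher ones were Rad23b at 0.38, 0.42 and 0.39 and Nfe2l1 at 0.65, 0.40 and 0.66.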

How the data were processed

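Cells were captured with the 10X Chromium 3′ v2 kit, and per the labels the authors processed reads with Cell Ranger 2.0.1 on mm10. The authors deposited raw UMI counts per gene and cell for filtered cells, and per-library matrices of all barcodes, both used here. Their tables of scaled values and of log values for neuronal cells were not used, since they hold no raw counts. Whether counting used strand is not given in the sources used here. Raw counts were summed per class and library and divided by all UMIs of that class (CPM). Ratios were taken on the log2 scale with no pseudocount, with exact conditional binomial intervals, exact Poisson intervals for levels and Clopper-Pearson intervals for shares, all at 95%. With 1 library per genotype there was no test and no p-value, and edgeR 4.0.16 and DESeq2 1.42.0 gave only scaling factors as alternatives. Python 3.11.15, numpy 2.4.6, scipy 1.17.1, pandas 2.3.3 and R 4.3.3 were used, and the scripts were tested on simulated data. Members were counted past a log2 ratio of 0.32, among genes that reached 20 CPM on average in typical cells. Genes named with full values were the most abundant of each role, the tissue-specific core genes, Psme1 and Psme2. Added to these were the 3 highest and 3 lowest ratios of each genotype comparison, among members at 20 CPM. The 3 highest and 3 lowest of outside over typical cells were also named, among members of any level with a ratio in every library. Psmd3, Psmd11, Psmc1 and Psmc5 were named after their values were seen. The members and lists were chosen with earlier results of these data known. No doublet caller was run, and leaving out the 5% of cells with the most UMIs stood in for one. Columns of per-sample values left unused numbered 0. Sequences are from RefSeq, and for 41 members an entry was used. Psma8 and Psmg2, on chromosome 18, were left out of the motif search, while the shares of all genes kept that chromosome. Mean or pooled columns were not used. Some results on single genes of the pathway list are not reported here.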

Additional observations from a re-analysis of the deposited data

Results flagged for a closer look

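Some results of one class comparison had opposite signs in different libraries. Psmc1, a base ATPase, was higher outside the neuronal table than in typical neurons in the homozygous library, at a log2 ratio of 0.22, and lower in the heterozygous, at −0.22. Psmd11 was higher in atypical than in typical neurons in the wild-type library, at 0.60, and lower in the homozygous, at −0.61. The summed 20S alpha and beta genes were at 0.069 in the wild-type and 0.036 in the homozygous library outside against typical neurons, and at −0.053 in the heterozygous. In each case the counting intervals of the libraries named lay on opposite sides of 0, and the difference between libraries was not tested.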

How the results depend on the processing

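Genotypes could not be paired because each had 1 library, and for the same reason no replicate could be left out. Classes were compared within each library without a test, since they were cut from clusters of the same cells. The intervals cover counting error only. A percentage after a count is the share of all genes past the same threshold under that setting. The cause of the changes below was not tested, except that mean raw UMIs per cell carry the depth of each library. Alternatives for counts in all 3 libraries, for single members between classes, for the 19S share and for marker groups were chosen after seeing the data.

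The summed homozygous over wild-type ratio was 0.028 without mitochondrial and ribosomal protein genes in the denominator, −0.34 as raw UMIs per cell and 0.044 in cells with 1500 to 2000 UMIs. The heterozygous ratio was −0.020 as raw UMIs per cell, 0.088 for constitutive subunits only and 0.0885 without Psma7. In the homozygous library, members higher numbered 3 with that denominator (11.9%), 0 as raw UMIs (1.01%), 4 with atypical cells included (15.6%), 4 at a mean of at least 100 CPM (13.8%) and 0 at 1.5-fold (2.96%). Members lower numbered 3 with that denominator (11.5%), 2 with DESeq2 factors (9.29%), 21 as raw UMIs (52.4%), 0 with atypical cells (9.27%), 2 without the 5% of cells with the most UMIs (8.82%), 2 thinned to 1000 UMIs (10.3%), 3 at 1500 to 2000 UMIs (11.5%), 2 with the empty-droplet profile subtracted (10.6%), 0 at 100 CPM (8.57%), 2 with no filter (24.6%) and 0 at 1.5-fold (1.95%). In the heterozygous library, members higher numbered 3 thinned (19.1%), 3 at 1500 to 2000 UMIs (20.6%), 0 at 100 CPM (13.5%) and 2 with no filter (21.7%), and members lower 0 at 1.5-fold (2.39%). As raw UMIs per cell, homozygous ratios were −0.065 for Psmb3, −0.072 for Psmc3 and −0.091 for Psmc4.

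Outside over typical, the WT, Het and Hom sums were −0.019, −0.096 and −0.042 with that denominator, −0.52, −0.43 and −0.49 with TMM factors, 0.74, 0.68 and 0.67 as raw UMIs and 0.16, 0.095 and 0.011 at 1500 to 2000 UMIs. The heterozygous sum was 0.037 as a mean over cells. The homozygous sum was 0.086 without the 5% of cells with the most UMIs and 0.10 thinned. With TMM factors Psmd3 was at −0.091 in the heterozygous and Psmd11 at −0.053 in the homozygous library. Members higher outside in all 3 libraries numbered 1 with that denominator (16.7%), 0 with TMM factors (6.83%) and 1 without the 5% (22.2%), and members lower 1 (17.2%) and 17 (48.8%) with the first and second of these. Atypical over typical, the wild-type sum was −0.17 with TMM factors and 0.11 as raw UMIs, the heterozygous 0.044 with that denominator, and the homozygous 0.046 with that denominator and 0.015 as raw UMIs. Members higher in all 3 numbered 0 with TMM factors (1.97%) and 0 at 1500 to 2000 UMIs (2.63%), which ended the call of Psmg4, and members lower 2 at 1500 to 2000 UMIs (8.61%). At 1500 to 2000 UMIs the 19S share outside was 34.0%, 35.0% and 32.7%, and in homozygous typical cells 30.6%. Counted as settings that left the value within its interval, moved it and turned its sign, single members gave 320, 16 and 3 between genotypes, 81, 21 and 2 outside over typical, and 30, 0 and 0 atypical over typical. The sums gave 18, 4 and 2 between genotypes, 6, 11 and 4 outside over typical, and 16, 3 and 2 atypical over typical.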
